A study of Mus musculus with 12 samples.

Results

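The Schlafen genes are a family of interferon-inducible genes that lie side by side on chromosome 11 of the mouse. The 7 members described here (Slfn1, Slfn2, Slfn3, Slfn4, Slfn5, Slfn8 and Slfn9) were found by gene symbol in the deposited tables and read by Ensembl identifier from 55414 gene records. Of the 7, 6 had enough counts to be tested in every comparison, and Slfn4 did not. RNA was measured in 12 libraries of splenic CD4+ T cells from wild-type male BALB/c mice aged 18 weeks, 3 libraries for each combination of group and day. The LIP group had experimental periodontitis induced by a silk ligature around a molar, and the CTL group had no ligature. Cells of day 0 were used directly after purification by negative selection. Cells of day 2, in both groups, had been stimulated in culture through the T cell receptor (anti-TCRβ) and CD28 (anti-CD28) in the presence of IL-2, as the protocol describes. The treatment labels of single day 2 libraries name anti-CD28, anti-CD29 or anti-CD30 in turn, and the protocol's anti-CD28 was taken for all. No culture without stimulation was among the libraries, so the effects of stimulation and of culture cannot be told apart. The study asked how periodontitis affects helper T cells before and after stimulation through the T cell receptor.

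Schlafen proteins share an N-terminal domain and are sorted by length. The short members are Slfn1 and Slfn2, the intermediate members Slfn3 and Slfn4, and the long members, which carry an additional helicase-like domain, are Slfn5, Slfn8 and Slfn9. Several family members bind or cleave transfer RNA, and Slfn2 is required for T cells to remain quiescent and protects transfer RNA from cleavage in activated T cells.

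The libraries held between 6249018 and 12866718 counts, and a level of 3 counts equalled 0.269 to 0.452 CPM (counts relative to library size). All CPM values given here are scaled by the TMM factors of the 12 libraries, with the mean ± SD of n = 3 libraries. Cd4, the coreceptor that defines helper T cells, was counted at 422 to 645 CPM, and Cd8a, which marks cytotoxic T cells, at 0.106 to 2.25 CPM. A pair of libraries stood apart from their groups. Without CTL 94 of day 0 the number of genes that differed between the groups on that day went from 60 to 658, and without LIP 90 of day 2 it went from 0 to 2014. Whether the libraries came from separate mice is not stated, so p-values measure the spread between libraries. In bulk RNA, fewer cells of a type and less RNA per cell cannot be told apart.

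The 7 members lay within 267.0 kb, from position 82842100 to 83109101 of chromosome 11 in GRCm39, together with the record Slfn10-ps. This record is named as a pseudogene in the deposited tables, whereas GENCODE M39 annotates a coding gene there. On the plus strand, the order was Slfn5 (82842100 to 82855666), Slfn2 (82955609 to 82961504), Slfn1 (83007615 to 83013496), Slfn4 (83066012 to 83081042) and Slfn3 (83082123 to 83109101). On the minus strand, Slfn9 (82868552 to 82882656) was followed by Slfn8 (82892984 to 82911669) and Slfn10-ps (82918956 to 82958140). The coding sequences measured 1011 bases in Slfn1 and 1134 in Slfn2, 1920 in Slfn3 and 1806 in Slfn4, 2652 in Slfn5, and 2730 in both Slfn8 and Slfn9.

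**Figure D1:**
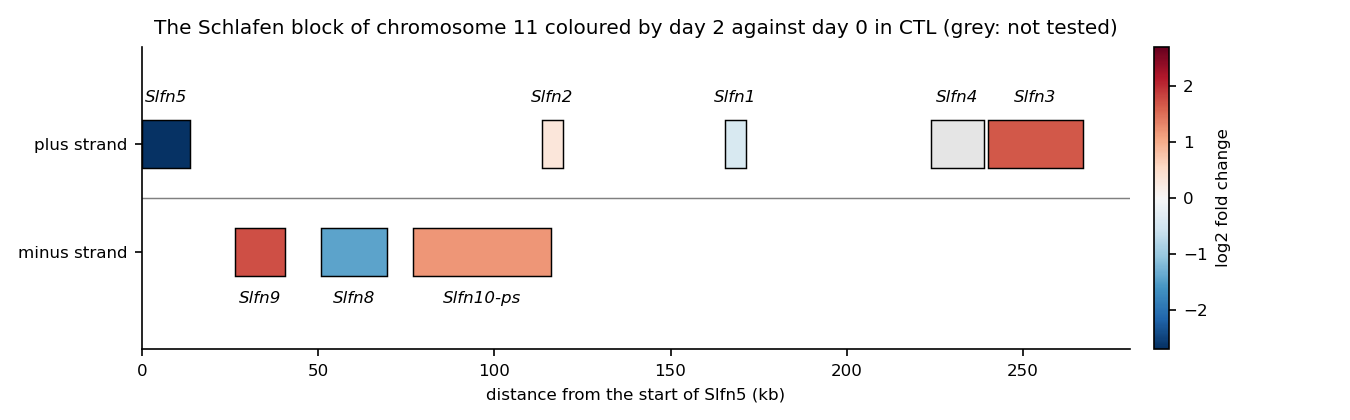
Map of the Schlafen genes on chromosome 11, with the distance from the start of Slfn5 in kb on the x axis and the strand on the y axis. Boxes span each gene and are coloured by the log2 fold change of day 2 against day 0 in the CTL group, from blue (-2.67 for Slfn5) to red (1.74 for Slfn9), so that genes of opposite direction lie next to each other, and Slfn4, which was not tested, is grey.

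Within the family, the coding sequences of Slfn8 and Slfn9 were 93% identical over 2723 aligned bases, and those of Slfn3 and Slfn4 were 93.7% identical over 1774. Slfn1 and Slfn2 were 78.2% identical, and Slfn5 was 73.5% to 76.7% identical to the other 6 members. At the read length of 150 bases, 1.31% of the distinct windows of Slfn9 transcripts occurred exactly in Slfn10-ps, and no window of the other 6 members occurred in another Schlafen gene. At 50 bases, shared windows made up 14.5% of Slfn8, 10.1% of Slfn9, 7.25% of Slfn4, 3.82% of Slfn3, 3.55% of Slfn2, 0.544% of Slfn1 and none of Slfn5. RSEM divides reads that match several genes by estimation, so values of Slfn8, Slfn9 and Slfn10-ps carry this uncertainty, as do those of Slfn3 and Slfn4. The reads came from BALB/c mice and were aligned to the reference genome of another strain, and the effect of strain differences on the counts was not tested. Slfn5 shares 1283 exon bases (19.8%) with the antisense RNA Slfn5os, which was counted 0 to 7 times per library, and 1028 exon bases (24.9%) of Slfn8 lie opposite the long non-coding RNA Gm74281, which has no record in the counts. The strand setting of the counting is not stated, so reads from the opposite strand of these stretches cannot be told apart.

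The stretches upstream of Slfn8, Slfn9 and Slfn5 are shown because these 3 long members moved in different directions between the days while each held a match to the interferon-stimulated response element. Sequences were taken from RefSeq promoters (GRCm38.p6), were found once each in GRCm39, and are written 5′ to 3′ on the strand of the gene up to the first exon base of any GENCODE transcript. Capitals mark GAAANNGAAA or its reverse complement. The positions in GRCm39 were chr11:82911670-82911886 (minus strand) for Slfn8, chr11:82882657-82882906 (minus strand) for Slfn9 and chr11:82842678-82842810 (plus strand) for Slfn5. The last lies inside the Slfn5 gene, between annotated exons.
Slfn8: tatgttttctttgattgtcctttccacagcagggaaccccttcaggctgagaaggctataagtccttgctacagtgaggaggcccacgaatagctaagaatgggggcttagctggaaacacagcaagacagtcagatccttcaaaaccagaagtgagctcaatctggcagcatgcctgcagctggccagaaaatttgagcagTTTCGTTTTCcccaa
Slfn9: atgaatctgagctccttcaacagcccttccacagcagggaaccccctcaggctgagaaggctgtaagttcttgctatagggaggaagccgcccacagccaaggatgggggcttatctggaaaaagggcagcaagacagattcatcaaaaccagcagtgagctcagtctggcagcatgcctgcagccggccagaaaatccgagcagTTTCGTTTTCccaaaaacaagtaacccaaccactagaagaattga
Slfn5: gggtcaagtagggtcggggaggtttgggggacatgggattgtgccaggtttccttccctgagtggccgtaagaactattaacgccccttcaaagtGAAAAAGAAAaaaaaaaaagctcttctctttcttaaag

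Over the 250 bases before the start, the upstream sequences of Slfn8 and Slfn9 were 87.4% identical across 238 aligned bases. Both held the same match, TTTCGTTTTC, at positions -48 to -39 of Slfn8 and -45 to -36 of Slfn9 relative to the RefSeq start. RefSeq gives a second start for Slfn8, from which the same match lies at -136 to -127. Slfn5 held GAAAAAGAAA at -155 to -146. Among the 32851 RefSeq promoters, 2.98% held GAAANNGAAA on either strand in these 250 bases, against 3 of the 7 members. The window of Slfn2 lay wholly inside the gene as GENCODE annotates it, with 0 bases before the first exon. Sequence upstream of that gene start was therefore not searched for Slfn2. The interferon-gamma activated site TTCNNNGAA (7.02% of promoters) and the FOXO motif GTAAACA (3.17%) had no match in any member. The AP-1 motif TGANTCA (6.75%) matched Slfn4 alone, at -34 to -28. A match is a description of letters and does not show that a factor bound there.

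Freshly purified CD4+ T cells contained the short members at the highest levels. In the CTL group on day 0, the levels per kb of transcript were 143 ± 11.9 CPM per kb for Slfn2 and 96.5 ± 2.62 for Slfn1. Slfn8 followed at 42.9 ± 2.19 CPM per kb and Slfn5 at 20.0 ± 1.78. Slfn9 was at 3.70 ± 0.0702 CPM per kb, Slfn3 at 2.91 ± 0.273 and Slfn4 at 0.127 ± 0.0549. No neighbours in this order overlapped between libraries, and the LIP group of day 0 had the same order, also without overlap. On day 2 of the CTL group, Slfn2 (179 ± 27.3 CPM per kb) and Slfn1 (71.1 ± 7.07) still led. Slfn8 (15.7 ± 4.47) and Slfn9 (12.4 ± 1.02) now overlapped, and Slfn5, at 3.14 ± 1.19 CPM per kb, came after Slfn3, at 9.31 ± 1.62. On day 2 of the LIP group, Slfn2 (184 ± 43.3 CPM per kb) overlapped with Slfn1 (112 ± 31.1), Slfn8 stood at 38.4 ± 11.8, and Slfn9 (11.0 ± 4.16), Slfn3 (10.6 ± 1.19) and Slfn5 (8.19 ± 4.28) overlapped as neighbours. The order in each group was the same per kb of all exons joined. The 7 members summed to 781 to 887 CPM in the 6 libraries of day 0, to 660 to 763 CPM in the CTL group on day 2 and to 785 to 1055 CPM in the LIP group on day 2.

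**Figure D2:**
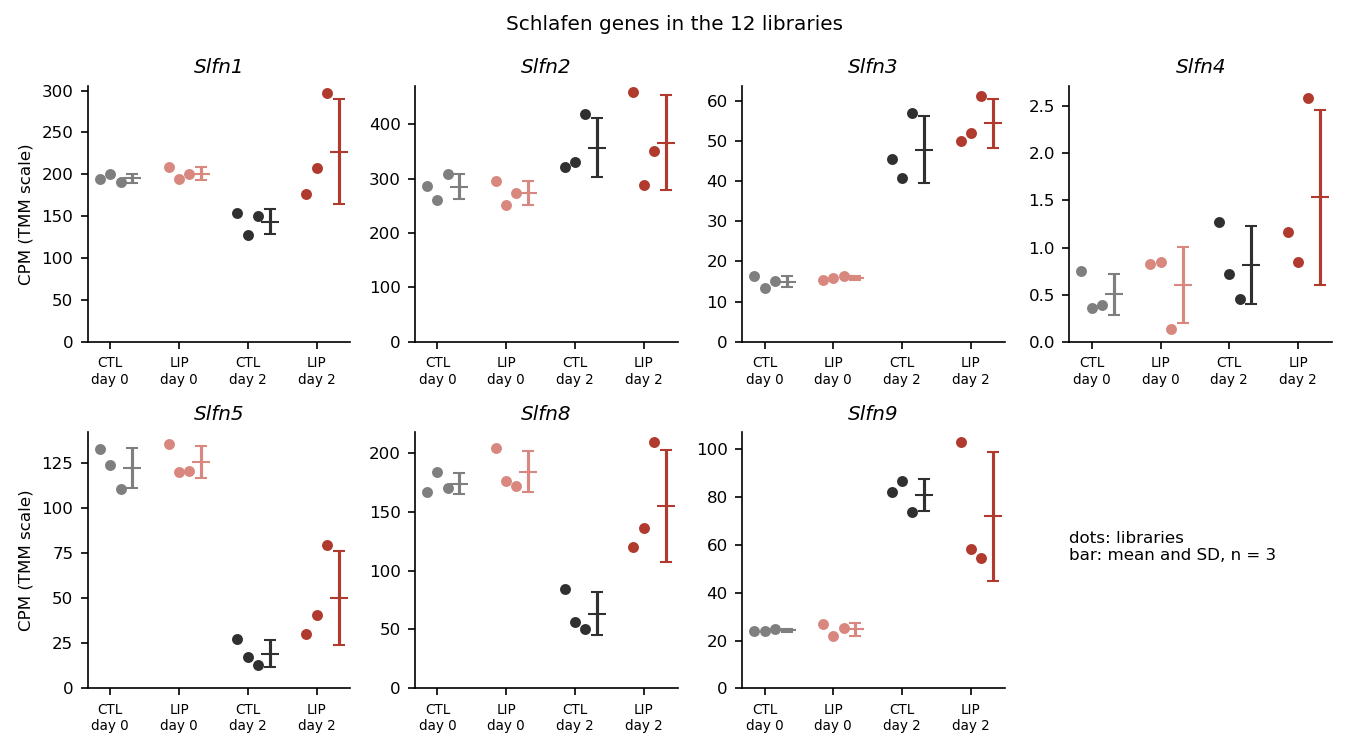
CPM of each Schlafen gene (y axis, linear from 0, TMM scale) in the 4 groups of 3 libraries (x axis), with dots for libraries and a bar for the mean and SD. On day 2, Slfn5 and Slfn8 lie lower and Slfn3 and Slfn9 higher than on day 0 in the CTL group, and the LIP libraries of Slfn8 on day 2 (120 to 209 CPM) lie above the CTL libraries (50.1 to 83.9 CPM).

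The family changed in both directions between day 0 and day 2. In the CTL group, Slfn3 and Slfn9 rose and Slfn1, Slfn5 and Slfn8 fell, so that 2 of the 6 tested members were higher and 3 lower. Over all 15475 genes tested in the 12 libraries, 35.3% were higher and 33.7% lower on day 2 in the CTL group, so the share of members that changed was not far from that of all genes. In the LIP group, Slfn2, Slfn3 and Slfn9 rose and Slfn5 fell, 3 higher and 1 lower of 6, against 36.6% of all genes higher and 35.2% lower. Both comparisons, and all adjusted p-values for genes below, rest on the quasi-likelihood test of edgeR, adjusted over all genes by the Benjamini-Hochberg method.

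Among the long members, Slfn5, a nuclear member linked in human cells to the regulation of interferon-responsive genes, had the largest decrease of the family. In the CTL group it was counted at 133, 124 and 111 CPM on day 0 and at 27.3, 17.6 and 12.9 CPM on day 2. Every day 2 library lay far below every day 0 library. The log2 fold change was -2.67 (SE 0.31), a 6.35-fold decrease, with an adjusted p of 5.07e-06. The LIP libraries held 136, 120 and 121 CPM on day 0 and 30.0, 40.8 and 79.9 CPM on day 2. The groups again did not overlap, although LIP 97 of day 2 was well above the other LIP libraries. The log2 fold change was -1.34 (SE 0.29), a 2.53-fold decrease, with an adjusted p of 0.00104.

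Slfn8, a long member of the family, fell in the CTL group, from 167, 184 and 170 CPM on day 0 to 83.9, 56.0 and 50.1 CPM on day 2, with no overlap. The log2 fold change was -1.45 (SE 0.21), a 2.74-fold decrease, with an adjusted p of 3.08e-05. LIP values were 204, 176 and 172 CPM on day 0 and 120, 136 and 209 CPM on day 2. Here LIP 97 of day 2 exceeded every day 0 library while the other day 2 libraries were lower, and the difference did not pass the test (log2 fold change -0.25, SE 0.20, adjusted p = 0.282). It passed as a decrease without LIP 97 of day 2 (-0.51, adjusted p = 0.0215), with upper-quartile normalization (-0.56, adjusted p = 0.0270) and with library size alone (-0.60, adjusted p = 0.0188).

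Slfn9, whose coding sequence is nearly that of Slfn8, moved the opposite way. In the CTL group it was counted at 24.1, 23.8 and 24.7 CPM on day 0 and at 82.1, 86.9 and 73.7 CPM on day 2, a log2 fold change of 1.74 (SE 0.20, adjusted p = 4.82e-06). Among the LIP libraries it stood at 26.9, 21.9 and 25.1 CPM on day 0 and at 103, 58.4 and 54.4 CPM on day 2, a log2 fold change of 1.55 (SE 0.20, adjusted p = 1.24e-05). In both groups every day 2 library lay above every day 0 library, and LIP 90 was the highest of all. The neighbouring record Slfn10-ps also rose, with a log2 fold change of 1.20 (adjusted p = 9.56e-06) in the CTL group and 1.69 (adjusted p = 3.15e-07) in the LIP group. When the counts of Slfn8, Slfn9 and Slfn10-ps were summed to 1 record, the log2 fold change was -0.08 (SE 0.12, adjusted p = 0.557) in the CTL group and 0.49 (SE 0.12, adjusted p = 0.00282) in the LIP group.

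**Figure D3:**
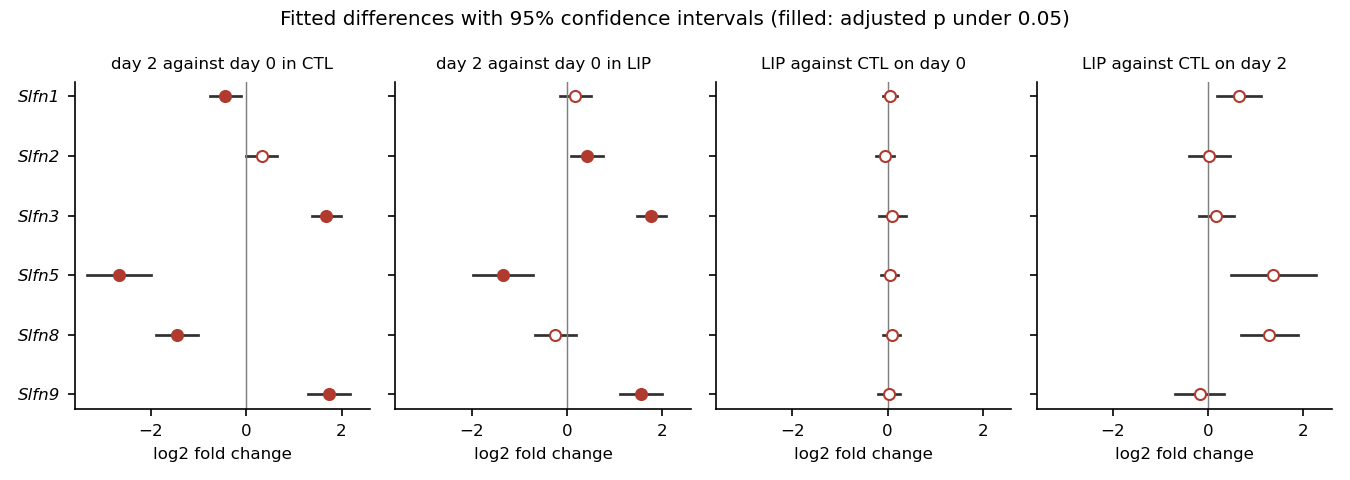
Log2 fold changes (x axis) of the 6 tested Schlafen genes (y axis) in 4 comparisons, as dots with 95% confidence intervals and filled where the adjusted p was under 0.05. The left panels, day 2 against day 0, hold filled dots on both sides of 0, from -2.67 (Slfn5, CTL) to 1.77 (Slfn3, LIP), whereas the right panels, LIP against CTL, hold none.

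Of the intermediate members, Slfn3 rose to a similar level in both groups. It was counted at 16.3, 13.5 and 15.1 CPM in the CTL group on day 0 and at 45.6, 40.8 and 57.0 CPM on day 2, a log2 fold change of 1.68 (SE 0.14, adjusted p = 2.35e-07). The LIP values were 15.3, 16.0 and 16.4 CPM on day 0 and 49.9, 51.9 and 61.3 CPM on day 2, a log2 fold change of 1.77 (SE 0.14, adjusted p = 1.21e-07). The days were clearly separated in each group. Slfn4, which is best known from macrophages and other myeloid cells, was counted 1 to 20 times per library. Its levels were 0.361 to 0.753 CPM in the CTL group of day 0, 0.134 to 0.844 CPM in the LIP group of day 0, 0.454 to 1.27 CPM in the CTL group of day 2 and 0.843 to 2.59 CPM in the LIP group of day 2. The libraries overlapped between the groups on each day and between the days in each group, and these counts were too low for a test.

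Of the short members, Slfn1, which restrains the growth of T cells when expressed in excess, was counted at 194, 201 and 191 CPM in the CTL group on day 0 and at 154, 127 and 150 CPM on day 2, with no overlap. The log2 fold change was -0.44 (SE 0.15, adjusted p = 0.0195), and the call was lost on leaving out CTL 88, 89 or 94 of day 0 or CTL 93 of day 2 (adjusted p = 0.0529 to 0.0882). The LIP values were 209, 194 and 200 CPM on day 0 and 176, 208 and 297 CPM on day 2. These overlapped, and the log2 fold change of 0.17 (SE 0.15, adjusted p = 0.316) did not pass the test, although it did as an increase without LIP 90 of day 2 (0.33, adjusted p = 0.0319). The value turned to -0.06 without LIP 97 of day 2, to -0.14 with upper-quartile normalization and to -0.18 with library size alone, none of which passed.

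Slfn2, the member required for T cell quiescence, was counted at 287, 261 and 308 CPM in the CTL group on day 0 and at 321, 330 and 419 CPM on day 2. The libraries did not overlap, but the log2 fold change of 0.32 (SE 0.15) had an adjusted p of 0.0791. It passed with no filter on low counts (adjusted p = 0.0160), with only the CTL libraries (0.0419) and without LIP 90 or LIP 96 of day 2 (0.0199 and 0.0401). The log2 fold change was smaller with upper-quartile normalization (0.03, adjusted p = 0.846), with library size alone (0.13, adjusted p = 0.451) and without CTL 97 of day 2 (0.19, adjusted p = 0.307). The LIP libraries stood at 295, 252 and 274 CPM on day 0 and 460, 289 and 350 CPM on day 2, with an overlap between the days. The log2 fold change of 0.42 (SE 0.15) had an adjusted p of 0.0254. The call was lost without LIP 90 of day 2 (0.23, adjusted p = 0.123) or without LIP 93 or 94 of day 0 (adjusted p = 0.0824 and 0.0585). It was also lost with at least 10 counts required in every library (0.33, adjusted p = 0.0636), with only the LIP libraries (0.41, adjusted p = 0.0521), with upper-quartile normalization (0.10, adjusted p = 0.556) and with library size alone (0.06, adjusted p = 0.730). The last 2 scalings lowered the median log2 fold change of all genes between days from 0.00 to -0.32 and -0.36 in the LIP group.

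The ratio of Slfn8 to Slfn9 counts within a library does not depend on scaling between libraries. On day 0 the ratio was 6.93, 7.72 and 6.88 in the CTL group and 7.58, 8.03 and 6.85 in the LIP group. On day 2 it was 1.02, 0.644 and 0.679 in the CTL group and 1.16, 2.34 and 3.85 in the LIP group. Thus the ratio was lower in every day 2 library than in every day 0 library, by 9.37-fold in the CTL group and 3.42-fold in the LIP group, and on day 2 each LIP library lay above each CTL library, by 2.86-fold on average. The exact two-sided permutation p was 0.1 for each of these 3 comparisons, which is the smallest that 20 splits of 3 against 3 allow, and the adjusted p over the 16 ratio comparisons made was 0.267. The ratio of Slfn5 to Slfn8 was 0.653 to 0.797 on day 0. On day 2 it was 0.325, 0.314 and 0.259 in the CTL group and 0.250, 0.299 and 0.382 in the LIP group, with an overlap (exact two-sided permutation p = 1.0).

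**Figure D4:**
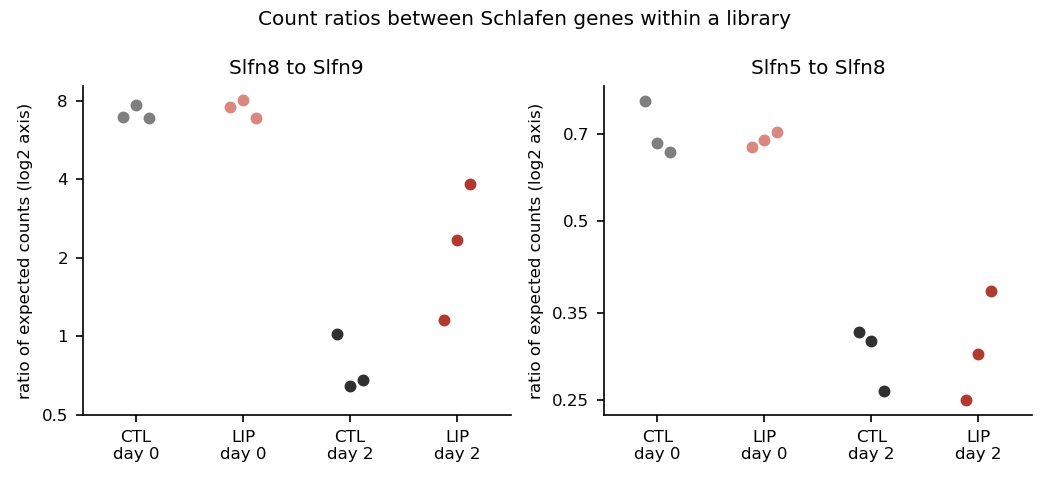
Ratios of expected counts within each library (y axis, log2 scale) for Slfn8 to Slfn9 (left) and Slfn5 to Slfn8 (right) in the 4 groups (x axis), 1 dot per library. The left ratio lies between 6.85 and 8.03 in all day 0 libraries and spreads from 0.644 to 3.85 on day 2, with the LIP libraries above the CTL libraries, whereas the right ratio overlaps between LIP and CTL on both days.

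No member differed detectably between LIP and CTL in uncultured cells. On day 0, 0 of the 6 tested members differed between LIP and CTL by edgeR's quasi-likelihood test, where 0.427% of 14064 genes did. At an unadjusted p under 0.05 the count was also 0 of 6, against 13.9% of genes, and DESeq2 called none of the 5 members for which it gave an adjusted p (Slfn3 had none). The values listed above overlapped between the groups for each member, whereas 9.66% of genes had every LIP library above every CTL library. The log2 fold changes lay between -0.06 (Slfn2, 95% confidence interval -0.24 to 0.13) and 0.10 (Slfn3, -0.18 to 0.38). The interval for Slfn8 (0.09, -0.09 to 0.26) and that for Slfn5 (0.04, -0.14 to 0.23) held no change of 1 on the log2 scale. The record Slfn10-ps, which is not among the members, had every LIP library above every CTL library on day 0. Its log2 fold change was 0.21 (SE 0.09, unadjusted p = 0.0398, adjusted p = 0.334).

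On day 2, the LIP libraries had more Slfn8, Slfn5 and Slfn1 RNA than the CTL libraries, without passing the adjusted threshold. For each of these 3 members every LIP library lay above every CTL library, as did 9.99% of the 14041 genes tested. After adjustment 0 of 6 members were called, and 0% of all genes were. At an unadjusted p under 0.05, 3 of 6 members were higher in the LIP group, against 8.33% of all genes. DESeq2 called Slfn8 (adjusted p = 0.000217) and Slfn5 (adjusted p = 0.00894) as higher, and gave 0.0539 for Slfn1, where it called 2.04% of all genes higher.

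Slfn8 ranked 112 of 14041 genes by p, with 155 ± 47.7 CPM in the LIP group and 63.3 ± 18.1 CPM in the CTL group. Its log2 fold change was 1.28 (SE 0.26, 95% confidence interval 0.69 to 1.88, unadjusted p = 0.000949, adjusted p = 0.118). With Slfn8, Slfn9 and Slfn10-ps summed to 1 record, it was 0.66 (SE 0.16, adjusted p = 0.138). Slfn10-ps alone had a log2 fold change of 0.69 (SE 0.18, unadjusted p = 0.00489, adjusted p = 0.150), with every LIP library above every CTL library. Slfn5 stood at 50.3 ± 26.3 CPM in the LIP group and 19.3 ± 7.31 CPM in the CTL group, a log2 fold change of 1.37 (SE 0.39, 0.48 to 2.26, unadjusted p = 0.00723, adjusted p = 0.169). For Slfn1 the levels were 227 ± 62.9 and 144 ± 14.3 CPM, a log2 fold change of 0.65 (SE 0.20, 0.20 to 1.11, unadjusted p = 0.0105, adjusted p = 0.186). In all 3 members LIP 97 was the highest library and LIP 90 the lowest of the LIP group, as the per-library plot shows.

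The other members did not separate the groups on day 2. Slfn2 (log2 fold change 0.03, 95% confidence interval -0.40 to 0.45) and Slfn3 (0.17, -0.19 to 0.53) overlapped between LIP and CTL. Slfn9 had a log2 fold change of -0.18 (-0.70 to 0.34, adjusted p = 0.735), with LIP 90 above and LIP 96 and 97 below all CTL libraries. Without LIP 90, Slfn8 (1.46, adjusted p = 0.00452), Slfn1 (0.83, 0.0102) and Slfn5 (1.65, 0.0109) were called higher and Slfn9 lower (-0.50, 0.0243) in the LIP group. That fit called 7.74% of 14453 genes higher and 6.19% lower. Without LIP 97, none was called, and the log2 fold changes of Slfn8, Slfn5 and Slfn1 were 1.01, 0.87 and 0.41.

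The test of the difference itself, the interaction of group and day, called 0 of the 6 members, where it called 0.0517% of 15475 genes. At an unadjusted p under 0.05, 3 of 6 were higher, namely Slfn8, Slfn5 and Slfn1, against 8.65% of all genes. DESeq2 called Slfn5 and Slfn8 higher, and 2.4% of all genes. The interaction was 1.21 for Slfn8 (SE 0.29, adjusted p = 0.0876), 1.33 for Slfn5 (SE 0.42, adjusted p = 0.146) and 0.61 for Slfn1 (SE 0.21, adjusted p = 0.185) on the log2 scale. For Slfn2, Slfn3 and Slfn9 it was 0.10, 0.09 and -0.19, with 95% confidence intervals of -0.37 to 0.57, -0.34 to 0.52 and -0.80 to 0.42. The day contrast of Slfn8, which passed the test in the CTL group and not in the LIP group, was thus not shown to differ between the groups at the adjusted threshold. Without LIP 90 of day 2 the interaction called Slfn8, Slfn5 and Slfn1 higher and Slfn9 lower, where it called 5.64% of 15823 genes higher and 4.45% lower. Without LIP 97 it called none.

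Since Schlafen genes respond to interferon, 33 other interferon-stimulated genes were read beside them. In the CTL group 7 of the 32 tested rose and 13 fell on day 2, where 35.3% of all genes rose and 33.7% fell, with a median log2 fold change of -0.16 against -0.02 for all genes. Ifi27l2a, an interferon-induced membrane protein, rose most (2.59, adjusted p = 1.91e-07), and Oas2, which makes the second messenger that activates RNase L, fell most (-5.49, SE 0.93, adjusted p = 0.000106). Oas2 had too few counts on day 2 to be tested between the groups, so low counts enter the size of this fall. Among LIP libraries 19 rose and 5 fell, where 36.6% of all genes rose and 35.2% fell, with a median of 1.03 against 0.00 for all genes. Isg15, a ubiquitin-like modifier, rose by 4.58 (adjusted p = 1.1e-06). Ifit3b fell most (log2 fold change -1.73, adjusted p = 0.0328), and Oas2 fell by 1.54 (adjusted p = 0.0212).

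Between the groups on day 2, 0 of the 29 tested interferon-stimulated genes passed the adjusted threshold, and 27 had an unadjusted p under 0.05, all higher in the LIP group, where 8.33% of all genes were. Their median log2 fold change was 1.71, against -0.01 for all genes. Isg15 (3.79, SE 0.46, adjusted p = 0.0568) had the smallest p of the list. The summed level of the 33 genes was 1671 to 2375 CPM in the CTL group and 3609 to 5449 CPM in the LIP group on day 2, and it was highest in LIP 97, the library with the most Slfn8, Slfn5 and Slfn1. On day 0 the median was 0.14 against 0.01 for all genes, with 0 of 31 called and 7 at an unadjusted p under 0.05, all higher in the LIP group, where 6.67% of all genes were higher at that p. A list of 8 genes, the interferon receptor chains, their kinases and the transcription factor Irf1, had 0 called between the groups by edgeR on either day, and at an unadjusted p under 0.05 it had 2 lower on day 0 and 1 higher on day 2, where 7.2% of all genes were lower on day 0 and 8.33% higher on day 2. Between the days, 1 of the 8 rose and 5 fell in the CTL group, and 2 rose and 4 fell in the LIP group, where 35.3% and 36.6% of all genes rose and 33.7% and 35.2% fell. Jak2, a receptor-bound kinase, rose by 2.63 (adjusted p = 1.72e-08) in the CTL group, and Ifngr1, a chain of the interferon-gamma receptor, fell by 1.75 (adjusted p = 5.97e-07).

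**Figure D5:**
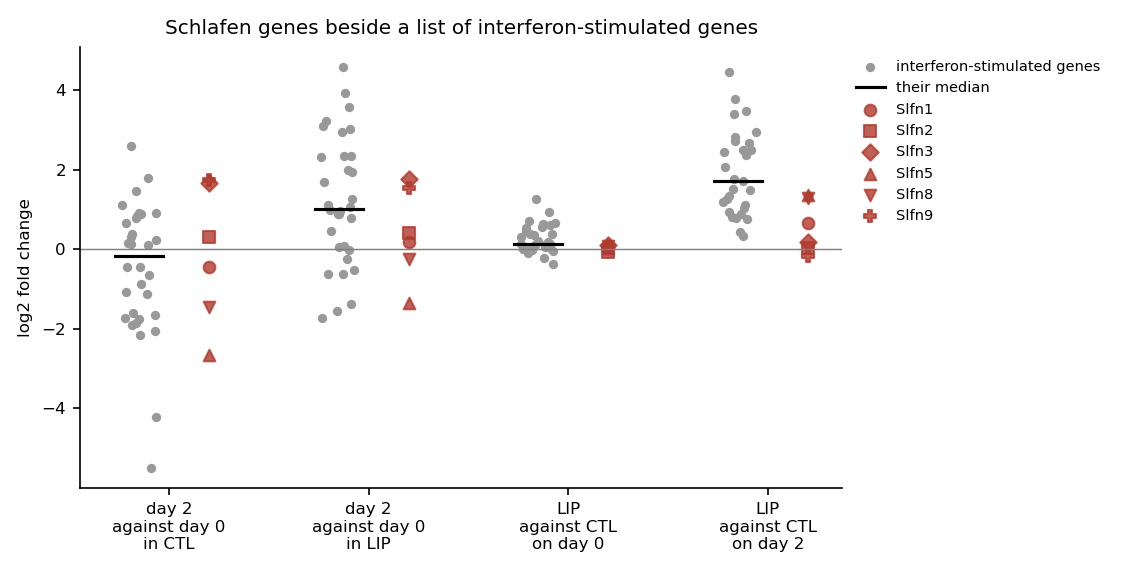
Log2 fold changes (y axis) of the tested interferon-stimulated genes (grey dots, line for the median) and of the 6 tested Schlafen genes (red symbols) in 4 comparisons (x axis). On day 2 the list has a median of 1.71 for LIP against CTL, with Slfn8 (1.28) and Slfn5 (1.37) inside its range and Slfn2, Slfn3 and Slfn9 near 0.

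Markers of other cell types were read for the same libraries. The 11 myeloid markers summed to 24.5, 28.8 and 64.6 CPM in LIP 90, 96 and 97 on day 2, and to 4.30 to 11.4 CPM in the CTL group. Their sum thus moved with the same libraries as Slfn8, Slfn5 and Slfn1. Among these markers, Itgam reached at most 5.21 CPM, Csf1r 4.01 CPM and Adgre1 0.562 CPM in any library. Which markers made up the higher sums was not tested. The neutrophil genes S100a8 and S100a9 were at 0 in every library. On day 0 the myeloid sum was 9.03 to 28.7 CPM in the CTL group and 19.3 to 30.2 CPM in the LIP group. The 8 B cell markers summed to 21.1 to 63.9 CPM in the CTL group and 21.7 to 71.4 CPM in the LIP group on day 2, against 110 to 129 CPM and 98.9 to 124 CPM on day 0. The 5 NK cell markers, with Klra8 at 0 throughout, ranged from 3.82 to 16.8 CPM in the CTL group and from 3.76 to 54.2 CPM in the LIP group on day 2, highest in LIP 96, against 47.1 to 57.0 and 41.5 to 49.0 CPM on day 0. B cell and NK cell markers were thus lower on day 2 alongside Slfn5 and Slfn8 in the CTL group. In the LIP group the B cell markers were lower too, but the NK cell sum of LIP 96 (54.2 CPM) exceeded that of every day 0 library in that group. The 2 CD8 T cell markers stood at 4.43 to 6.33 and 4.93 to 13.2 CPM, the 5 dendritic cell markers at 0.597 to 1.37 and 0.627 to 1.78 CPM, and the 5 erythroid markers at 0.740 to 2.15 and 0.777 to 1.22 CPM in the CTL and LIP groups of day 2. The part of these cells in the Schlafen values was not tested. The T cell markers Cd3e, Cd3d, Cd3g, Cd4 and Trac summed to 1718 to 1992 CPM in the CTL group and 1664 to 1836 CPM in the LIP group on day 2.

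Genes of T cell quiescence and of transfer RNA cleavage were read beside Slfn2, which has known roles in both. Of 20 genes of naive and quiescent T cells, 12 fell and 3 rose in the CTL group on day 2, and 11 fell and 2 rose in the LIP group, where 33.7% and 35.2% of all genes fell and 35.3% and 36.6% rose. The medians were -1.01 and -0.93, against -0.02 and 0.00 for all genes. S1pr1, the receptor that lets T cells leave lymphoid organs, fell in both groups, with log2 fold changes of -5.21 (adjusted p = 1.62e-09) in the CTL group and -4.68 (adjusted p = 2.61e-09) in the LIP group. Tsc22d3, a glucocorticoid-induced repressor, also fell, with log2 fold changes of -5.53 (adjusted p = 2.14e-08) and -3.59 (adjusted p = 3.31e-07). Bach2 rose in both groups, with log2 fold changes of 1.49 (adjusted p = 6.42e-07) and 1.07 (adjusted p = 1.25e-05). Satb1 rose as well, with 0.92 (adjusted p = 8.91e-06) and 1.13 (adjusted p = 1.26e-06). Between the groups on day 2, 0 of the 20 were called, with 3 higher and 6 lower at an unadjusted p under 0.05, where 8.33% of all genes were higher and 8.2% lower. Of 8 genes of transfer RNA cleavage and protection, 4 were tested and 3 rose in each group, where 35.3% and 36.6% of all genes rose. Among the 3 were Rnh1, the inhibitor of angiogenin (1.71 in the CTL group, adjusted p = 4.49e-08, and 1.70 in the LIP group, adjusted p = 3.79e-08), and Nsun2, which methylates transfer RNA (1.35, adjusted p = 0.000124, and 1.04, adjusted p = 0.000904). Of the angiogenin genes, Ang2, Ang4 and Ang5 were at 0 in all libraries.

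Genes on either side of the block were read for comparison. Among the tested neighbours, Rffl, Rad51d, Nle1 and Ap2b1 had log2 fold changes of day 2 against day 0 between -0.37 (Rffl) and 0.50 (Nle1) in the CTL group. Of these, Rffl fell (adjusted p = 0.0338) and Rad51d and Nle1 rose (adjusted p = 0.0235 and 0.00624) in the CTL group, and Ap2b1 rose in the LIP group (log2 fold change 0.36, adjusted p = 0.00145). Their adjusted p between LIP and CTL on day 2 ranged from 0.621 to 0.992. Slfn14, the next family gene on that chromosome, was counted 0 to 2 times per library, and the related gene Slfnl1 on chromosome 4 was counted 0 to 6 times.

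The genes with the most similar patterns over the 12 libraries were found by the root mean square difference of centred log2 CPM among 12374 genes. Slfn8 was closest to Rnf213 (0.152), a large ubiquitin ligase, Herc6 (0.207), an ISG15 ligase, and Ddx58 (0.212), the RNA sensor RIG-I, and the last 2 belong to the list of interferon-stimulated genes. Slfn1 was closest to Trim56 (0.125), Zc3hav1 (0.133), an antiviral zinc finger protein, and Shisa5 (0.133). The genes nearest to Slfn5 were Tspyl4 (0.339), Psme2b (0.353) and 9930111J21Rik2 (0.358). Slfn3 was nearest to Sla (0.105), an adaptor that dampens T cell receptor signalling, Ublcp1 (0.134) and Rad18 (0.137). Slfn9 was nearest to Snhg4 (0.106), Ddb1 (0.113) and Psmd12 (0.117), and Slfn2 to Prps1l3 (0.079), Aida (0.098) and Ube2v2 (0.100). These values describe likeness within the same libraries. They tend to be larger for genes that vary more between libraries, so they are not compared between members.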

How the data were processed

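Reads were checked by the authors with FastQC 0.11.9 and trimmed with Trimmomatic (version 0.38 in the submitters' processing notes). The values deposited by the authors are RSEM 1.3.0 expected counts (Bowtie2, GRCm39), not normalized. Tables for each day, also deposited, gave the gene symbols, and their fold changes and p-values by the authors were not used. In these files, 2 library columns belong to no labelled sample and were left out. Libraries were assigned by title.

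Expected counts (73267 not whole) were rounded. Each day was fitted alone, and the day contrasts and the interaction came from all 12 libraries, by edgeR 4.0.16 under R 4.3.3 (filterByExpr, TMM, quasi-likelihood test) with Benjamini-Hochberg adjustment over all genes and a threshold of 0.05. The scripts were tested on simulated data. Alternatives were DESeq2 1.42.0, other normalizations and filters, summed paralogs, other sets of libraries and the library number as block. Positions and lengths came from GENCODE M39 (54749 records matched). Coding sequences were aligned with Biopython 1.88, and all 7 members matched a RefSeq promoter.

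The genes named are the members, the other Schlafen records, markers, the 3 genes most like each member, neighbours and, from each list and day contrast, the most changed that passed the test, of which a part is printed. Isg15 on day 2 was chosen after its values were seen. Members and lists were chosen with earlier results of these data known. Single values of 1 cell type marker and 1 neighbouring gene are not reported here.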

Additional observations from a re-analysis of the deposited data

How the results depend on the processing

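Single library numbers recur between the groups (94 on day 0, 97 on day 2, and 92 and 93 in LIP of day 0 and CTL of day 2), and the labels do not say what a number marks. The deviations of libraries of the same number from their group means had correlations of 0.1, -0.01, -0.05 and -0.04 over 15475 genes. The highest correlations with other libraries of the second group were 0.04, 0.01, 0.06 and 0.03. With 3 libraries per group, these values cannot decide whether libraries of the same number share more than the number. A fit with the number as replicate block, added after seeing the data, left 1 residual degree of freedom and drew on the 8 libraries with a recurring number alone. In it LIP against CTL rested on 1 pair of libraries, 94 on day 0 and 97 on day 2. The day contrasts and the interaction also ran through these pairs, so only effect sizes are given. Under this block the log2 fold changes of LIP 97 over CTL 97 on day 2 were 0.990 for Slfn1, 2.625 for Slfn5 and 2.064 for Slfn8. Some values had the other sign than in the reported analysis. These were -0.261 for Slfn2 on day 2, -0.0056, 0.0938 and 0.605 for Slfn2, Slfn5 and Slfn8 between days in LIP, and -0.0924 and -0.0149 for the interactions of Slfn2 and Slfn3.

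The number of members called between LIP and CTL on day 0 was 0 under every alternative run. On day 2 and in the interaction it was 0, but in both 3 with no filter on low counts, 2 with DESeq2, 4 without CTL 94 of day 0 and LIP 90 of day 2 together and 0 to 4 on leaving out single libraries, and 3 on day 2 with all 12 libraries in one fit. Between days in CTL it was 5, with 2 of 4 records when paralogs were summed, 6 with no filter or only the CTL libraries, and 4 to 6 without single libraries. Between days in LIP it was 4 (3 to 5 over all alternatives), with 2 higher and 2 lower in place of 3 and 1 under upper-quartile normalization and library size alone.

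Over all genes, the 60 calls of day 0 became 645 with no filter, 202 with DESeq2, 12 with all 12 libraries in one fit, and 13 (without LIP 93) to 658 (without CTL 94). The 0 calls of day 2 became 662, 485, 775 and 0 to 2014 (without LIP 90). The 8 of the interaction became 815 with no filter, 520 with DESeq2, 97 with library size alone, 1 (without any of 5 libraries) to 1596 (without LIP 90), and 1682 without CTL 94 and LIP 90. The calls between days were 10676 (CTL) and 11111 (LIP). Upper-quartile normalization and library size alone moved the median log2 fold change between days to -0.31 and -0.21 (CTL) and to -0.32 and -0.36 (LIP), and the share of calls that were higher from 51.1% to 38.4% and 42.4%, and from 51.0% to 37.7% and 36.2%. Library size alone moved that share on day 0 from 13.3% to 30.2%.

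Outside the block, signs turned for values that passed no adjusted test in the reported analysis. Leaving out single libraries gave -0.122 to 0.0018 for Slfn2, -0.0241 to 0.0996 for Slfn5 and -0.0357 to 0.108 for Slfn9 on day 0, -0.141 to 0.183 for Slfn2 on day 2, -0.06 to 0.332 for Slfn1 between days in LIP, and -0.0968 to 0.249 (Slfn2) and -0.0088 to 0.239 (Slfn3) for the interaction. Slfn1 between days in LIP was -0.142 with upper-quartile normalization and -0.185 with library size alone. With library size alone, Slfn2 was 0.0123 on day 0 and -0.059 on day 2, and the interactions of Slfn2 and Slfn3 were -0.0707 and -0.0805. Without CTL 94 and LIP 90, Slfn2 was 0.0018 and Slfn5 -0.0241 on day 0, and Slfn2 was -0.141 on day 2 and -0.156 for the interaction. Without CTL 94 and LIP 97, a pair chosen after seeing the data, the day 0 values were the same, Slfn1 between days in LIP was -0.0604 and the interaction of Slfn3 was -0.0089. The cause was not tested. Depth limits Slfn4, at 1 to 20 counts per library.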
